A study of Mus musculus with 12 samples.

Results

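Immediate early genes are the first genes that a stimulated neuron transcribes, without waiting for new protein. Calcium entering through synaptic receptors and channels activates kinases, which act on transcription factors such as CREB and SRF already bound at these genes, and the transcripts are soon degraded again. In forebrain and hippocampus their RNA is widely read as a mark of recent neuronal activity. The 10 genes described here were matched by symbol to 10 of the 55487 gene identifiers counted. They are Fos, Fosb and Junb, subunits of the AP-1 transcription factor; Egr1, Egr2 and Egr4, zinc finger transcription factors; Nr4a1, an orphan nuclear receptor; Npas4, a bHLH-PAS transcription factor selective for calcium influx in neurons; Arc, which acts at synapses in the internalisation of AMPA receptors; and Ier2, a nuclear protein of the early response to growth factors as well as to activity.

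RNA from 12 individual male mice was sequenced in 4 groups of 3. At postnatal day 0 (P0) forebrain was taken from mice with both copies of Auts2 exon 7 deleted by Cmv-cre, a transgene active in nearly all cells, and from BL6 wild-type littermates. At postnatal day 14 (P14) hippocampus was taken from mice with both copies deleted by Nes-cre, driven in neural progenitors and so in the neurons and glia derived from them, and from controls heterozygous for the floxed allele, whose Cre status the labels do not state. The labels name no stimulus, and the levels below are those of the tissue as it was collected. The libraries held 11247150 to 16796797 gene counts at P0 and 16830720 to 23340621 at P14. The count of the whole Auts2 gene does not read the deletion of 1 exon: it was 146 to 172 counts per 1000000 (CPM) in the P0 wild types, 172 to 194 in the P0 knockouts, 89.7 to 103 in the P14 heterozygotes and 70.7 to 87.6 in the P14 knockouts. Forebrain and hippocampal markers (Emx1, Emx2, Lhx2, Zbtb20, Neurod2 and Neurod6) passed the expression filter in both tissues.

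Promoter sequence is given as a description of the members, and its relation to their levels was not tested. The shares over all windows below were not matched for base composition. RefSeq (GRCm38.p6) gave promoter windows for 7 of the 10 genes, each 300 bases long and reaching 250 bases upstream of a transcript start; Arc, Egr1 and Ier2 were not matched. The core of the cAMP response element to which CREB binds is TGACG on either strand. It was present in each of the 7 matched genes and in 9 of their 11 windows, against 20.8% of 32851 RefSeq promoter windows. Egr2 has several starts and so several windows. All 250 upstream bases of the Npas4 window, and 181 of an Egr2 window, lay in annotated exons of the same gene. The full element TGACGTCA was in 0 of the 7, against 1.79% of all windows; every full element also holds the core. The upstream 250 bases of 3 members with their cores in capitals (TGACG, or CGTCA on the other strand) are shown 5′ to 3′ on the gene's strand. Capitals also mark the TATAAA of Fos, which begins 33 bases before the start, and in Nr4a1 a match to the EGR motif GCGNGGGCG on the other strand.

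Fos, chr12:85473640-85473889, plus strand: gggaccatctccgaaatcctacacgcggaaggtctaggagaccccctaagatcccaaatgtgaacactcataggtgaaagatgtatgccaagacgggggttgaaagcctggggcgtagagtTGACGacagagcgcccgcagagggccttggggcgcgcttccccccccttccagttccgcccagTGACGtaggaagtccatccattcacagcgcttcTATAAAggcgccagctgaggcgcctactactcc
Egr4, chr6:85513590-85513839, minus strand: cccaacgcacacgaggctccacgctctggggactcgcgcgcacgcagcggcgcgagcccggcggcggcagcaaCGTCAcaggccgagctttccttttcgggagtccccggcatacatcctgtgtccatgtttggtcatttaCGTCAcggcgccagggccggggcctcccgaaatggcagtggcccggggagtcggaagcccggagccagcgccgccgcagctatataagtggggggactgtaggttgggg
Nr4a1, chr15:101266596-101266845, plus strand: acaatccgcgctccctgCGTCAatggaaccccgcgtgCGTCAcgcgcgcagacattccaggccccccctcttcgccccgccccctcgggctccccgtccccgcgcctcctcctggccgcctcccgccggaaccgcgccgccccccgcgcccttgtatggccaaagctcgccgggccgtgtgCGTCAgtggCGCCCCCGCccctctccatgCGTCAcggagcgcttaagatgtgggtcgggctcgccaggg

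The CArG box, the site of SRF, was found in 1 matched gene, Egr2, or 4 of the 11 member windows, and in 1.63% of all windows. Egr2 has 2 such sites near its alternative starts, shown in capitals in 30 bases each.

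Egr2, chr10:67537484-67537513, plus strand: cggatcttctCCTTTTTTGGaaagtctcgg
Egr2, chr10:67537787-67537816, plus strand: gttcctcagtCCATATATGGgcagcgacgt

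The EGR motif was found in Fosb and Nr4a1 and in 5.55% of all windows, the AP-1 motif TGANTCA in 0 members and 7.81%, and TATAAA in Fos and Junb and 13.6%. In Junb the TATAAA begins at the RefSeq transcript start itself and not upstream of it. Motifs were searched on both strands. A match is a string of letters and not a measured binding site.

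The members were low at P0, and 7 of the 10 were 2.91-fold (Fos) to 17.5-fold (Arc) higher in P14 heterozygous hippocampus than in P0 wild-type forebrain. Per kilobase of exon, so that genes can be compared, Egr1 had the highest mean level of the 10 in P0 wild-type forebrain, 5.12 ± 0.781 CPM per kilobase (SD, n = 3), followed by Ier2 at 4.83 ± 0.681 and Nr4a1 at 3.55 ± 0.0798. In P14 heterozygous hippocampus Arc led at 25.9 ± 4.98 CPM per kilobase, with Egr1 at 20.6 ± 2.65 and Junb at 19.1 ± 3.12. Egr2 and Fosb were the lowest in both tissues: Fosb had 0.179 ± 0.0948 CPM per kilobase in P0 wild type and 0.569 ± 0.152 in P14 heterozygotes.

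Between the control groups, P14 against P0, 9 of the 10 members were called higher (edgeR quasi-likelihood test, Benjamini-Hochberg adjusted p under 0.05 over 18189 genes), where 64% of all genes were called and 32.3% were called higher. Arc rose the most, by 4.13 ± 0.23 (log2 fold change ± SE, adjusted p = 3.8e-09 by edgeR). With CPM scaled over all 12 libraries, Arc had 4.32 to 5.97 CPM in the 3 wild-type libraries and 71.5 to 103 CPM in the 3 heterozygotes. Egr4 rose by 3.45 ± 0.24 and Junb by 3.04 ± 0.15. Egr1, Nr4a1, Fosb and Fos rose by 2.22, 2.11, 1.91 and 1.54. The activity-selective Npas4 rose by 0.83 ± 0.23 only, and Ier2 by 0.38 ± 0.16 with overlapping groups (adjusted p = 0.0445 by edgeR). Egr2 was not called, at 0.46 ± 0.33 (adjusted p = 0.232 by edgeR). For the 8 members other than Egr2 and Ier2 every P14 control lay above every P0 control, as for 34% of all genes. Tissue, age, control genotype and Cre line change together in this comparison and cannot be told apart, and in bulk tissue a different share of cells cannot be told apart from a different amount of RNA per cell. Junb shares 173 exonic bases with Prdx2 on the opposite strand, and the libraries do not separate strands.

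**Figure D1:**
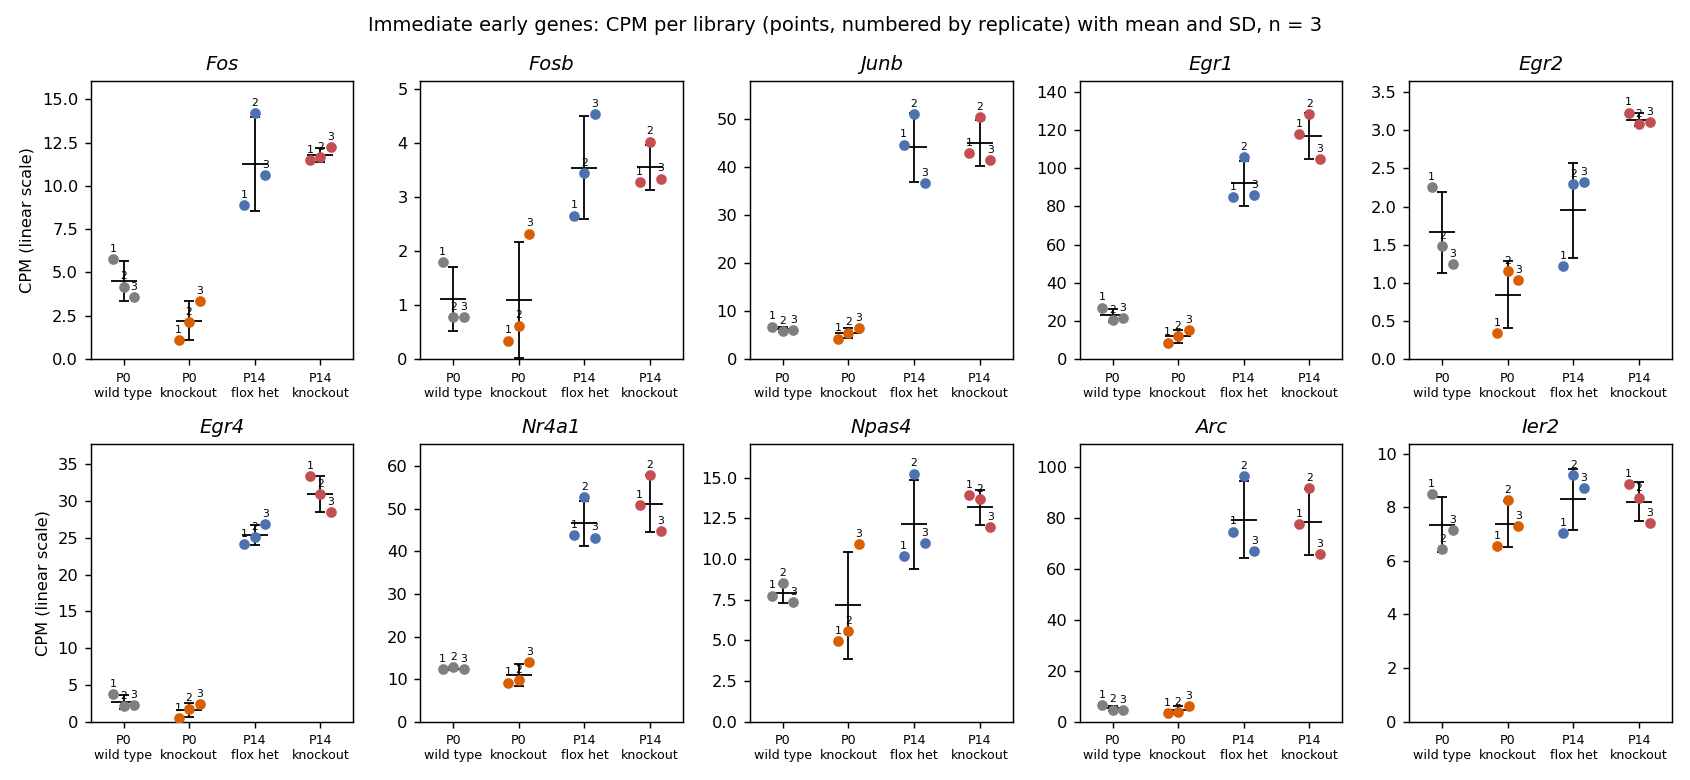
CPM of each of the 10 genes in the 12 libraries, on a linear axis from 0 that differs between panels. Points are libraries numbered by replicate and bars give the mean and SD (n = 3). CPM are scaled within each tissue. Arc, Egr4 and Junb stand far higher at P14, whereas Ier2 lies between 6.44 and 9.19 CPM in every library. Scaled over all 12 libraries, Ier2 lies between 5.99 and 7.90 CPM at P0 and between 7.63 and 9.83 at P14.

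In P0 forebrain Egr1 fell in the knockout. Fos, Egr2 and Egr4 had negative log2 fold changes of similar size that did not pass the test, and the other 5 members tested lay closer to 0. Egr1 had 299, 236 and 359 counts in the wild-type libraries, or 27.0, 20.5 and 21.3 CPM. It had 101, 134 and 234 counts in the knockouts, or 8.60, 11.9 and 15.1 CPM. Every knockout library lay below every wild-type library, and knockout replicate 3 was the nearest to wild type. The log2 fold change was -0.94 ± 0.18 (adjusted p = 0.0390 by edgeR), so Egr1 fell to 0.523 of the wild-type level. It was the 1 call among the 9 members tested, against 0.909% of the 16176 genes called and 0.717% called lower. The call ended when wild type replicate 1 or 2 was left out (adjusted p by edgeR = 0.205 and 0.144). It also ended without knockout replicate 1 or 2 (adjusted p by edgeR = 0.111 and 0.153). A fit that is not robust to outlying genes ended it too (adjusted p by edgeR = 0.0575). In those fits edgeR called 2, 1, 1, 15 and 50 genes in all, against 147 in the main fit.

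Fos had 64, 48 and 60 counts in wild type and 13, 24 and 52 in the knockout. In CPM that was 5.77, 4.18 and 3.57 against 1.11, 2.13 and 3.36, again without overlap and again with knockout replicate 3 close to wild type. The difference was -0.98 ± 0.33 and did not pass the test (adjusted p = 0.172 by edgeR). Without knockout replicate 3 it was -1.46 and passed (adjusted p = 0.0210 by edgeR), as did 4.69% of all genes, against 0.909% in the main fit. Egr2, which is also known for its role in myelinating Schwann cells, had only 25, 17 and 21 counts in wild type and 4, 13 and 16 in the knockout (-0.93 ± 0.42, adjusted p = 0.299 by edgeR). Its groups did not overlap either. Groups without overlap and lower in the knockout occurred in 11.5% of all genes tested. Egr4 had 42, 24 and 38 counts in wild type and 6, 20 and 37 in the knockout (-0.74 ± 0.43, adjusted p = 0.422 by edgeR), and the groups overlapped.

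The other members differed less. Arc, Junb, Nr4a1 and Npas4 were at -0.21, -0.18, -0.17 and -0.11, and Ier2 was at 0.01, with adjusted p-values from edgeR of 0.648 or more. For Npas4 the knockout libraries were far apart: they had 4.94, 5.59 and 10.9 CPM, on either side of the wild-type 7.75, 8.53 and 7.37. Nr4a1 showed the same arrangement, at 9.20, 9.76 and 13.9 CPM in the knockout around 12.3, 12.8 and 12.4. Fosb, at 4 to 36 counts, did not pass the filter on low counts and was not tested; its 3 knockout libraries had 0.341, 0.621 and 2.32 CPM and the wild types 1.80, 0.783 and 0.773. For the 9 members tested the median log2 fold change was -0.21, against -0.0003 over all genes tested, and 3 had an unadjusted p under 0.05, which 9.17% of genes had with a lower level. With 3 libraries against 3, the smallest exact two-sided permutation p is 0.1, which Egr1, Fos and Egr2 had.

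The labels of the P0 libraries open with numbers, 1407 to 1410 for replicates 1 and 2 of both groups and 1415 and 1416 for the third of each; what the numbers stand for is not given. Within the first set, 2 libraries against 2, the log2 fold change was -1.21 for Egr1 and -1.61 for Fos. Both were called (adjusted p = 6.2e-05 and 0.0019 by edgeR), as were 12.9% of all genes, against 0.909% in the main fit. In the second set there is 1 library of each group and no test, with Egr1 at 15.1 CPM in the knockout and 21.3 in wild type and Fos at 3.36 and 3.57. With the number set as a term Egr1 stayed called, at -0.95 (adjusted p = 0.0258 by edgeR), and 2.87% of all genes were called.

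Other gene groups differed between the same P0 libraries. Summed CPM of 10 heat shock genes was 2961, 2952 and 2770 in wild type and 2306, 2375 and 2594 in the knockout, with Hsph1 and Hspa5, both chaperones, called lower (-0.38 and -0.52). Of 8 hypoxia-response genes, the glucose transporter Slc2a1 and the stress gene Ddit4 were called higher (0.58 and 0.55). Summed astrocyte markers ranged from 786 to 1000 CPM in wild type and from 737 to 750 in the knockout, and summed microglial markers from 103 to 127 and from 90.7 to 109. In each of these lists 1 of 10 markers was called lower, Aqp4 and P2ry12; 0 markers of either list were at 0 in all libraries of a group. All 7 forebrain and hippocampal markers were higher, with Lhx2 called (0.42). Of 12 dentate granule markers 11 were lower, with Calb1 and Pdzd2 called (-0.59 and -0.55). Of 11 cortical excitatory markers Slc17a7 and Nrgn were called lower (-0.54 and -0.56) and Fezf2 higher (0.42). Of 10 striatal markers 7 were lower, with Tac1 called (-0.73). Of 13 CA pyramidal and 11 interneuron markers 0 were called, and of all genes 0.909%. The part of any of these in the result was not tested.

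**Figure D2:**
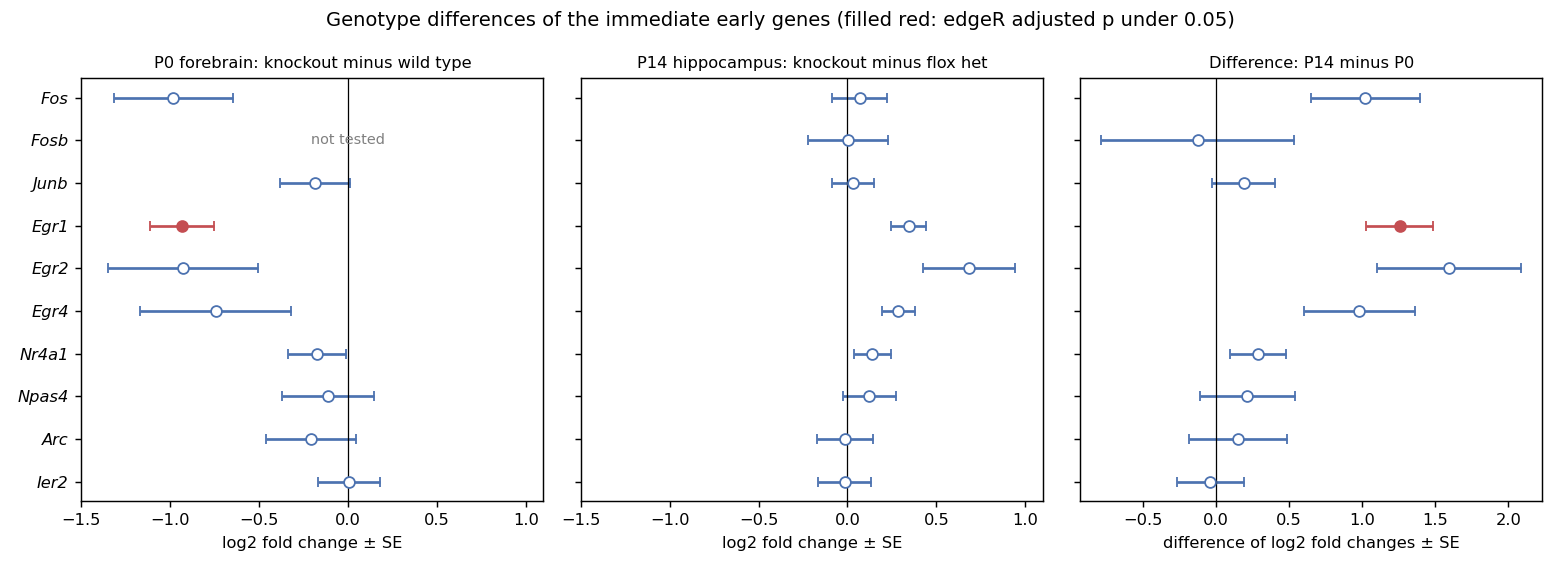
Log2 fold changes ± SE of the 10 genes for knockout against control at P0 (left) and P14 (middle), and the difference of the 2 (right). Filled red points passed an adjusted p of 0.05 by edgeR: Egr1 at P0 (-0.94) and in the difference (1.26); Fosb was not tested at P0.

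In P14 hippocampus the 3 EGR genes had the largest log2 fold changes of the members, all positive, and 0 of the 10 members passed the edgeR test, against 1.99% of 17208 genes called. DESeq2 called 1, Egr1, at 0.35 (adjusted p = 0.0367), and 3.1% of all genes. Egr1 had 84.9, 106 and 85.7 CPM in the heterozygotes and 118, 128 and 105 in the knockouts, a log2 fold change of 0.35 ± 0.10 (adjusted p = 0.0928 by edgeR). The groups overlapped by heterozygote 2 and knockout 3. Egr2 had 1.22, 2.30 and 2.32 CPM in the heterozygotes and 3.23, 3.08 and 3.11 in the knockouts (0.68 ± 0.26, adjusted p = 0.210 by edgeR). Egr4 had 24.2, 25.1 and 26.8 against 33.3, 30.9 and 28.4 CPM (0.29 ± 0.09, adjusted p = 0.137 by edgeR). Every knockout lay above every heterozygote for Egr2 and Egr4, as for 10.3% of all genes. These 3 genes had an unadjusted p under 0.05 by edgeR, as 7.84% of genes did with a higher level.

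The remaining members at P14 lay between -0.02 and 0.14 on the log2 scale. Fos had 8.88, 14.2 and 10.6 CPM in the heterozygotes and 11.5, 11.7 and 12.3 in the knockouts, and Arc 74.6, 96.4 and 67.0 against 77.5, 91.7 and 65.9. In both, the heterozygotes spanned the knockouts or nearly so. The median over the 10 members was 0.10, and over all genes tested -0.01.

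Markers of some cell types differed between the P14 groups. Of 14 dentate granule markers 11 were called lower in the knockout, with a summed level of 920 to 1018 CPM in heterozygotes and 652 to 719 in knockouts. Summed striatal markers ran from 211 to 254 and from 286 to 378 CPM, with Drd1, a dopamine receptor, called higher at 1.46. Choroid plexus and ependymal markers summed to 152, 920 and 2395 CPM in the 3 heterozygotes, the lowest in replicate 1, and to 1311 to 1915 in the knockouts. The part of these in the values of the members was not tested.

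The genotype difference itself differed between the contexts for Egr1. The difference of the 2 log2 fold changes, P14 minus P0, was 1.26 ± 0.23 (adjusted p = 0.0128 by edgeR), the 1 call among the 10 members; 1.79% of 18189 genes were called and 1.37% were called higher. The contexts differ in tissue, age, Cre line and control genotype. The same difference was 1.60 ± 0.49 for Egr2, 1.02 ± 0.37 for Fos and 0.98 ± 0.38 for Egr4, none of which passed (adjusted p = 0.109, 0.191 and 0.232 by edgeR). These 4 had an unadjusted p under 0.05, as 8.42% of genes did with a positive difference. For the other 6 members it lay between -0.12 and 0.29. Without P0 knockout replicate 2 the call for Egr1 ended (adjusted p = 0.0546 by edgeR), and 0.784% of all genes were called. Without P0 knockout replicate 3 Fos and Egr4 were called too (adjusted p = 0.0222 and 0.0414 by edgeR), as were 3.16% of all genes.

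Between the libraries of P0 forebrain the members varied together. Knockout replicate 1 was the lowest of the 6 libraries for 9 of the 10 members and wild type replicate 1 the highest for 7, while knockout replicate 3 was the highest for the other 3, Fosb, Nr4a1 and Npas4. The mean log2 CPM of the 10 members was 2.68, 2.27 and 2.23 in wild type and 1.31, 1.92 and 2.42 in the knockout. Wild type replicate 1 and knockout replicate 1 had nearly equal depth, at 11274685 and 11755916 counts.

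**Figure D3:**
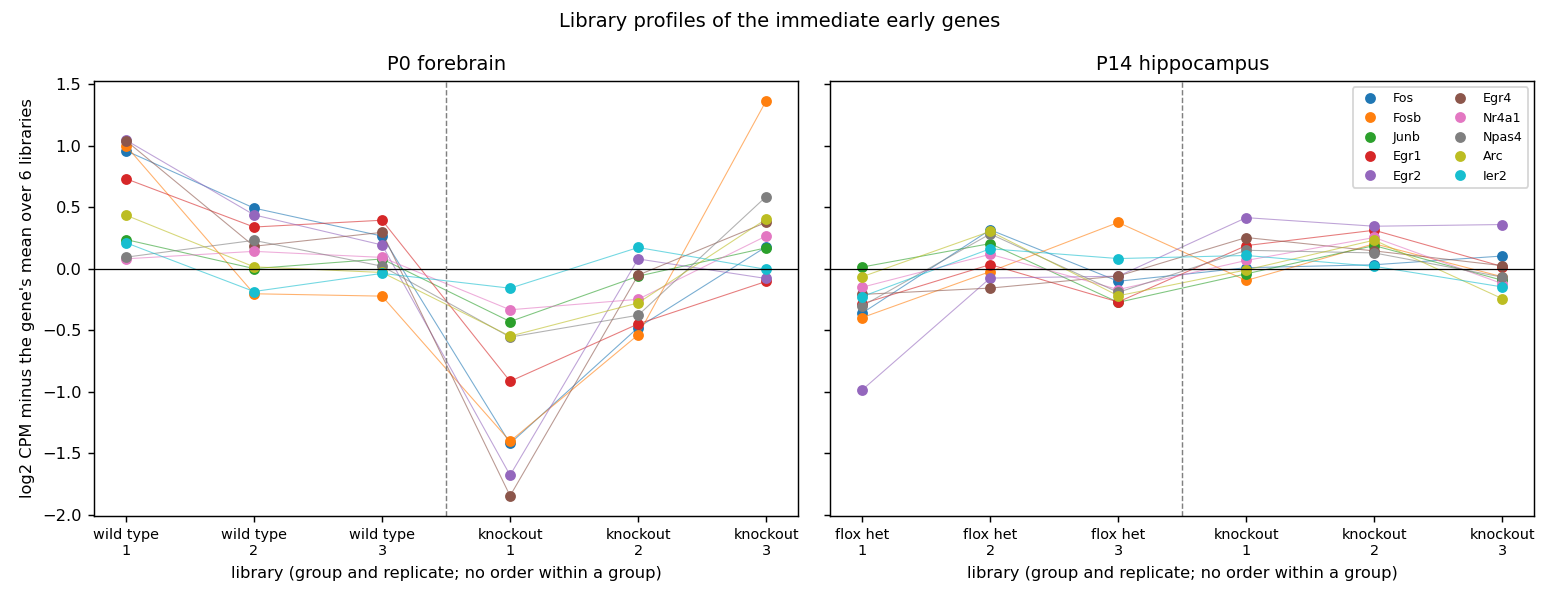
Each gene's log2 CPM (no prior count) in the 6 libraries of each tissue, as the difference from its own mean over them; lines join a gene's points and replicates have no order. At P0 knockout replicate 1 is the lowest library for 9 of 10 genes, and at P14 the points lie closer together except for Egr2 in heterozygote 1.

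Over the 45 pairs of members at P0, Pearson's r of log2 CPM (prior count 2) had a median of 0.797 and ranged from -0.02 to 0.98; 43 were positive. An r above 0.8 was found in 48.9% of these pairs and in 4.22% of all pairs of the genes tested, whose median r was -0.001. The highest values were those of Junb with Egr4 (r = 0.981, rho = 1.0, exact permutation p = 0.0014 and 0.0028, n = 6) and Npas4 with Nr4a1 (r = 0.976, rho = 0.943, exact permutation p = 0.0028 and 0.0167, n = 6). Without the 2 libraries farthest from the median of the first gene of the pair these were 0.946 and 0.975. Fosb with Arc (0.972) and Fos with Egr1 (0.969) followed. Of the 45 pairs, 21 had an unadjusted exact permutation p under 0.05 and 0 passed after Benjamini-Hochberg adjustment over the 90 pairs of both tissues, the smallest adjusted p being 0.0625. The EGR pair Egr2 and Egr4 had r = 0.960 (rho = 0.60, exact permutation p = 0.0222 and 0.242, adjusted 0.125 and 0.483). Without the 2 libraries farthest from the median of Egr2 its r was -0.19, so that this r rests on those.

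Ier2 was the member least like the others, with r = 0.429 to the mean of the other 9; for Junb that value was 0.981. When each group's own mean was subtracted, the median r of the pairs at P0 was 0.847, so the members also varied together within the groups. Knockout replicate 1 carried part of the relation: the median was 0.588 without it. All members share the library and its scaling, and n is 6.

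At P14 the relation was looser. The median r of the 45 pairs was 0.522 (range -0.27 to 0.92), with r above 0.8 in 15.6% of pairs against 4.11% of all gene pairs. Junb and Arc had the highest value (r = 0.919, rho = 0.886, exact permutation p = 0.0153 and 0.0333, n = 6). Without the 2 libraries farthest from the median of Junb it was 0.935. Egr1 with Nr4a1 had r = 0.880. After adjustment 0 pairs passed and 5 had an unadjusted exact permutation p under 0.05; the smallest adjusted p was 0.106. Of the 2 highest pairs at P0, Npas4 with Nr4a1 had r = 0.837 at P14 and Junb with Egr4 -0.03. Junb with Arc had r = 0.932 at P0, and Fosb with Arc, 0.972 there, had -0.0003 at P14. Whether the correlations differed between tissues was not tested. Heterozygote replicate 1 was the lowest of the 6 libraries for 7 of 10 members, and without it the median r was 0.254.

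**Figure D4:**
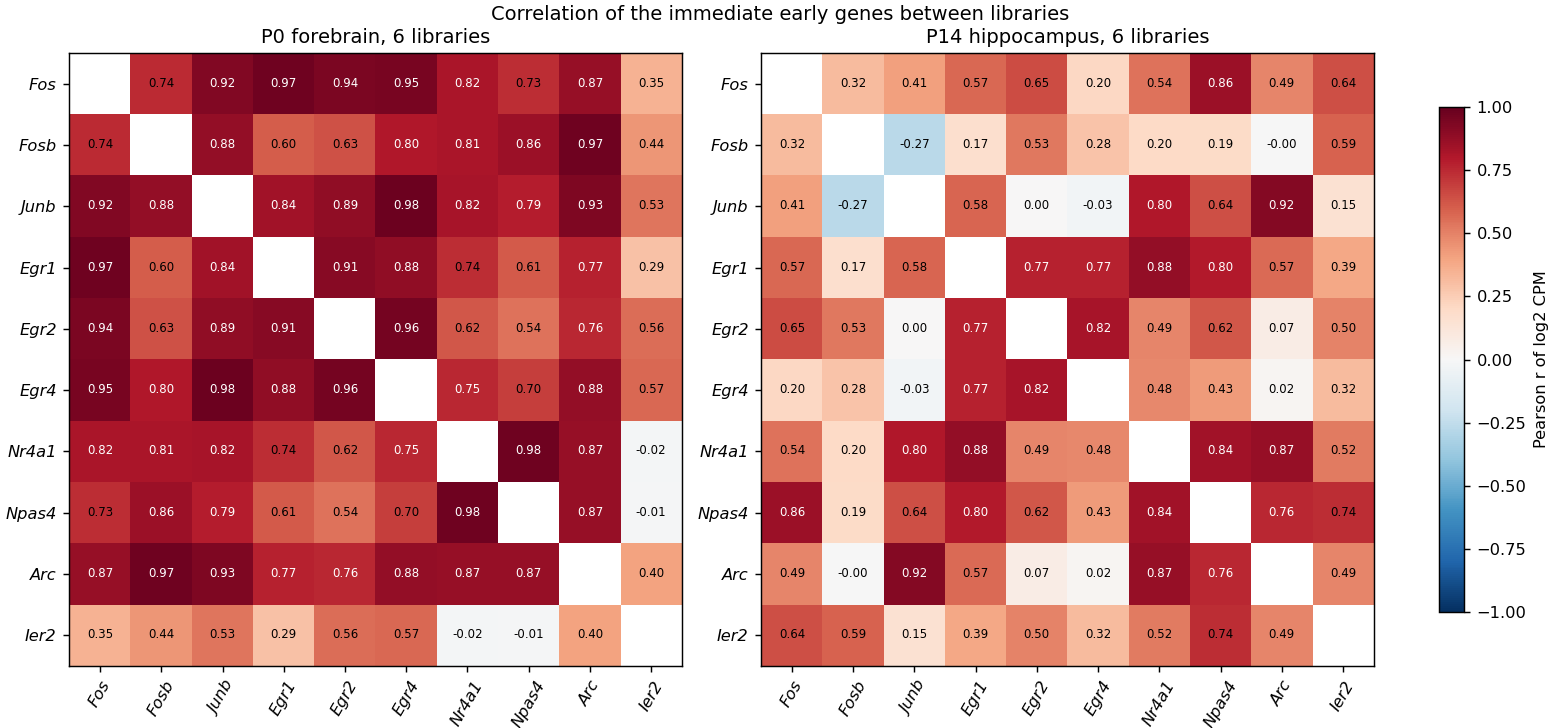
Pearson r of log2 CPM for each pair of the 10 genes over the 6 libraries of P0 forebrain (left) and of P14 hippocampus (right), coloured from -1 to 1. The median is 0.797 at P0, where the row of Ier2 is the palest, and 0.522 at P14.

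Most other genes of the activity response were not called with genotype. Over all genes edgeR called 0.909% at P0 and 1.99% at P14, and DESeq2 called 2.36% and 3.1%. Of 13 other immediate early transcription factors tested at P0 and 14 at P14, 0 were called by edgeR or DESeq2 in either, and 4 and 2 had an unadjusted p under 0.05 by edgeR. The 4 at P0 were Egr3, Klf10 and Nr4a2, with negative log2 fold changes (-0.50, -0.47 and -0.25), and Nfil3, with a positive one (0.37). The most abundant, Klf6 at P0 and Nr4a3 at P14, had log2 fold changes of -0.06 and -0.14. Among early effectors and feedback regulators edgeR called 0 of 25 and 0 of 26, with 4 and 7 at an unadjusted p under 0.05. DESeq2 called 1 in each, Ier5 at P0 and Ptgs2 at P14. Ier5 was higher in the P0 knockout (0.45, adjusted p = 0.0524 by edgeR). The kinase gene Plk2 was at 0.04 and 0.05, and Homer1, a postsynaptic scaffold gene with an activity-induced short form, at -0.06 and -0.08. Of 14 late effectors edgeR called 1 in each tissue, with 6 at P0 and 3 at P14 at an unadjusted p under 0.05. DESeq2 called the same gene in each, and Scg2 as well at P0. At P0, 12 of these 14 genes had a negative log2 fold change, as 50.1% of all genes did, with a median of -0.30. At P14 8 were lower and 6 higher. Rasgrf1, an exchange factor for Ras, fell by 0.63 at P0 (adjusted p = 0.0495 by edgeR). The neurotrophin gene Bdnf fell by 0.45 at P14 (adjusted p = 0.00918 by edgeR), beside the lower dentate granule markers given above. Of 36 upstream kinases, channels and transcription factors edgeR called 0 at P0, where 10 had an unadjusted p under 0.05 and DESeq2 called 1, Map2k1. At P14 it called 2, Mef2c (0.60), a calcium-regulated factor, and Arnt2 (0.36), a dimer partner of NPAS4, with 10 at an unadjusted p under 0.05; DESeq2 called both and Grin2a. Of the 7 partners and repressors of AP-1 and EGR proteins tested, 0 were called by edgeR or DESeq2 in either tissue, and 1 in each had an unadjusted p under 0.05 by edgeR.

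The genes most like the members were ranked, among 13285 others, by the smaller of the r values at P0 and at P14 to the mean log2 CPM of the members, over 6 libraries each. Among the first 8 were Kcnh4, a potassium channel gene (r = 0.954 and 0.916), Wdsub1, Pcsk4, Cdk18, Armc2, the processed pseudogene Gm6210 and Itga9; for Itga9 the values were 0.811 and 0.927. In all, 9 of the 13285 genes had both r above 0.8. Over all pairs of tested genes r was above 0.8 in 4.22% at P0 and in 4.11% at P14. The genes named head a ranking, and their likeness to the members was not tested. None of these named genes is in the lists of activity genes used here.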

How the data were processed

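The deposited files hold counts per gene made by the authors; per the submitters' processing notes the tools were STAR 2.7.5a and edgeR 3.12 and the build was GRCm38 (mm10). The unstranded count column was used, since 49.9% to 50.0% of stranded counts fell on one strand. Symbols, coordinates and exon lengths came from GENCODE vM21, and 55227 of 55487 identifiers matched. Genes were filtered with filterByExpr and TMM-scaled, and the groups were compared with edgeR 4.0.16 (glmQLFit, robust; glmQLFTest) in R 4.3.3, with Benjamini-Hochberg adjustment over all genes tested. Each tissue was fitted alone; the difference between tissues and the control comparison used 1 fit of all 12 libraries. The SE is the log2 fold change divided by the root of F. CPM were scaled within a tissue except where scaling over all 12 libraries is stated. DESeq2 1.42.0 was an alternative. The edgeR script was tested on simulated counts. Replicates are separate mice.

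The members and lists were chosen with earlier results of these data known. Named beside the members were called genes of each list, otherwise its most abundant, and the 8 genes most alike. Of the last, 1 is not reported here.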

Additional observations from a re-analysis of the deposited data

Results flagged for a closer look

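The genotype difference of Egr1 differed between the 2 tissues: it was -0.94 in P0 forebrain and 0.35 in P14 hippocampus on the log2 scale, of which the second did not pass (adjusted p = 0.0928 by edgeR). The test of the difference itself gave 1.26 (SE 0.23, adjusted p = 0.0128 by edgeR). In P0 forebrain Egr1 was lower in 3 of 3 knockout libraries than in any wild type, and in P14 hippocampus the groups overlapped. Tissue, age, Cre line and control genotype cannot be told apart here.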

How the results depend on the processing

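The number of members called at P0 was 1, but 2 with no filter on low counts, 2 in the first label-number set only (chosen after seeing the data), 0 with a non-robust fit, and 0 to 2 without 1 library. Of all genes 0.909% were called at P0 in the main fit, 1.99%, 12.9% and 0.309% in those settings, and 0.00604% to 4.69% without 1 library. At P14 the members called were 0, but 1 with DESeq2, 1 with no filter on low counts and 0 to 1 without 1 library. Of all genes 1.99% were called there in the main fit, then 3.1%, 2.48% and 0.595% to 10.3%. For the difference between tissues 1 member was called, but 2 with DESeq2, 4 with no filter and 0 to 3 without 1 library. With the first label-number set only at P0 (added later) 4 were called. Of all genes 1.79% were called in the main fit, then 2.92%, 1.83% and 0.669% to 4.85%, and 4.57% with the first set only. The control comparison called 7 to 9 members and 34% to 68.3% of all genes. The median r fell to 0.540 at P0 and 0.186 at P14 without the 2 libraries farthest from the median of the members' mean log2 CPM. The cause was not tested.

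Small differences reversed. In the first label-number set Ier2 at P0 was -0.0040, and in the difference between tissues Ier2 was 0.0061 and Fosb 1.43. Fosb at P14 was -0.13 with the larger strand column and -0.0079 in 1 fit of all libraries. Without 1 library, P0 values ran from -0.076 to 0.11 for Ier2 and from -0.58 to 0.098 for Npas4. P14 values ran from -0.14 to 0.15 for Arc, -0.070 to 0.27 for Fos, -0.16 to 0.22 for Fosb, -0.12 to 0.061 for Ier2 and -0.087 to 0.15 for Junb. The difference between tissues ran from -0.032 to 0.52 for Arc, -0.59 to 1.16 for Fosb and -0.14 to 0.044 for Ier2. Fosb and Egr2 at P0, at 4 to 36 counts, were limited most by depth. No paired analysis was possible because the replicate numbers used here only name the libraries, in accession order, and the labels pair no animals across groups.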

Other observations

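Relatives of the members did not all follow them. Egr3, the fourth EGR gene, had r = 0.920 to the mean log2 CPM of the 10 members over the 6 P0 libraries and -0.29 over the 6 P14 libraries. Klf10 had 0.796 and -0.13, and Jun, the main AP-1 partner of FOS, had 0.698 and -0.68. Nr4a2 had 0.665 and 0.395, and Nr4a3 -0.19 and -0.58. All share the library and its scaling.

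Between the P14 and P0 controls, 4 of the 14 other immediate early transcription factors tested were called higher and 5 lower by edgeR. Of 26 early effectors 13 were called higher and 5 lower, and of 14 late effectors 10 and 3. Of all genes 64% were called and 32.3% were called higher.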
